A study of Mus musculus with 12 samples.

Results

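The genes described here are 37 Polycomb and histone demethylase genes, taken by name from a deposited table of 20457 genes in mouse hematopoietic stem cells. They are 7 genes of Polycomb repressive complex 2 (PRC2), 14 of Polycomb repressive complex 1 (PRC1), 3 of the deubiquitinase complex PR-DUB and 13 KDM demethylases. All 37 were in the table and all 37 passed the filter on low values, which asked for at least 10 normalized counts in at least 3 of 12 libraries and kept 14723 genes.

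Stem cells were taken from bone marrow of C57BL/6 mice at an age of 2 months (young) or 28 months (old), and flow cytometry separated them by surface IL27RA, a subunit of the receptor through which the cytokine IL27 acts. The 4 groups were young IL27RA−, young IL27RA+, old IL27RA− and old IL27RA+, with 3 libraries of 50 cells each, amplified by Smart-Seq2, a full-length cDNA method. The labels name no mutation or treatment in any group and do not state the gates used for stem cells. They also leave it unsaid whether libraries of a group are from different animals. The p-values therefore reflect the spread between libraries, part of which may be technical.

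Libraries held 11.7 to 24.2 M reads in genes, and a normalized count is a read count divided by the library's size factor. At these depths 3 reads corresponded to 1.93 to 3.77 normalized counts, far below the mean level of each of the 37 genes, which ran from 131 to 3965. For the labelled cell type, all 14 genes of a stem cell marker list had reads in every library and summed to between 74060 and 107506 normalized counts per library. Young IL27RA− replicate 2 and old IL27RA− replicate 1 had the lowest array weights, 0.434 and 0.542. An array weight falls as a library scatters more about its own group mean, and these are called below the 2 libraries that stood apart. Old IL27RA− replicate 1 also carried 373985 normalized counts of B and plasma cell genes, against 713 to 1462 in the other 11 libraries, and 1 of its labels calls it young while its title and age say old. For the averaged sort, limma called 1 of 20 proliferation genes and 4 of 14 macrophage genes as higher in IL27RA+ cells, and 1 of 9 megakaryocyte genes as lower (adjusted p = 0.017). For averaged age it called as higher in old cells 3 of 9 megakaryocyte genes, 1 of 7 granulocyte and monocyte genes (Prtn3), 1 of 3 T and NK cell genes (Klrb1c) and 1 of 14 macrophage genes, and as lower 1 macrophage gene and 1 of 7 stroma and endothelium genes. Summed T and NK cell genes held 68.2 to 537 normalized counts in young and 791 to 2928 in old libraries, with 4 of the 10 listed genes in the table. Klrb1c averaged 172, 164, 2034 and 884 in young IL27RA−, young IL27RA+, old IL27RA− and old IL27RA+ cells, so most of the rise was this gene. Cd4 averaged 75.9, 116, 0 and 147 in that order, Nkg7 averaged 6.88, 56.6, 18.9 and 114, and Trbc2 was at 0 in 11 libraries. Of 10 erythroid genes, 10 had differences above 0 for the young sort and 0 were called. Summed over 20 proliferation genes, libraries held 9629 to 18429 normalized counts in young IL27RA− cells, 8230 to 21544 in young IL27RA+, 4099 to 6935 in old IL27RA− and 18627 to 27442 in old IL27RA+ cells. Summed over 14 macrophage genes, they held 1592 to 2357, 5847 to 9404, 1206 to 1741 and 2078 to 9472 in the same order. The markers Fcgr1 and Adgre1 (Emr1 in the table) had no read in either IL27RA− group, nor Cd5l in old IL27RA− cells, and all 14 were read in both IL27RA+ groups. The part of these cells or states in the values below was not tested.

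Polycomb proteins keep developmental genes silent. PRC2 places methyl groups on lysine 27 of histone H3 through EZH1 or EZH2, with EED and SUZ12 as obligate partners, and PRC1 places ubiquitin on histone H2A through RING1 or RNF2. PR-DUB, built from BAP1 and an ASXL protein, removes that ubiquitin, and the KDM enzymes remove methyl groups from histone lysines. In blood stem cells, BMI1, a PRC1 subunit, is known for its role in self-renewal, and ASXL1 and EZH2 are recurrently mutated in myeloid disease.

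The start sites of the genes shared a feature that their selection did not use. RefSeq (GRCm38.p6) gave promoter windows for 30 of the 37 genes, each from 250 bases before to 50 bases after a start site. The median window of these genes held 28.5 CpG dinucleotides (range 9 to 50), against 8 over 27025 genes, and all 30 lay above the median of all genes, as 48.1% of all genes did. Their median GC content was 66.2%, against 53.3%. The 27025 genes were not limited to those past the filter on low values, which all 37 genes passed. The windows were searched on both strands for the words TTTCCCGC, TTTCGCGC, TTTGCCGC and TTTGGCGC, spellings of the site bound by E2F factors, which act on S-phase genes. These 8-letter words lay in 3 of the 30 genes (10%) and in 2.60% of all genes, and the 3 were Ezh2, Suz12 and Phf19, all of PRC2. With the first T left out, the 7-letter words lay in 9 of the 30 (30%) and in 10.9% of all genes. Each word contains CG, and matches were not compared at equal CpG content. The 30 genes had 42 windows, and the 27025 genes had 32851. The 8-letter spelling was preferred after the matches were seen. The 3 windows are printed with that of Ezh1, the EZH2 paralog, which holds none of the words. They are shown 5′ to 3′ on the strand of the gene, with the matching word in capitals, at chr6:47594981-47595280 (minus strand) for Ezh2, chr11:79992856-79993155 (plus) for Suz12, chr2:34913927-34914226 (minus) for Phf19 and chr11:101226414-101226713 (minus) for Ezh1.
Ezh2: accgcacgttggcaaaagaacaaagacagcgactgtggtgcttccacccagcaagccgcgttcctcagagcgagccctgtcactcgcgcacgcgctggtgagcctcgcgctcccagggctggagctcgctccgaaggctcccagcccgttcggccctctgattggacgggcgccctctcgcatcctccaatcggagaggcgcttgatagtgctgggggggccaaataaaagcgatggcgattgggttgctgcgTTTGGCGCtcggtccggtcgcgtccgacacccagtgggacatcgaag
Suz12: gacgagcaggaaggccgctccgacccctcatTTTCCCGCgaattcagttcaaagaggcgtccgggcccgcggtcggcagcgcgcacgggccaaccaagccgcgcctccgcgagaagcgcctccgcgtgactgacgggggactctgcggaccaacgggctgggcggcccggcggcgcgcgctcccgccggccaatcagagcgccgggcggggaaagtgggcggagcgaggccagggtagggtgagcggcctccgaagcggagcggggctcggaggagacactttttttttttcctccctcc
Phf19: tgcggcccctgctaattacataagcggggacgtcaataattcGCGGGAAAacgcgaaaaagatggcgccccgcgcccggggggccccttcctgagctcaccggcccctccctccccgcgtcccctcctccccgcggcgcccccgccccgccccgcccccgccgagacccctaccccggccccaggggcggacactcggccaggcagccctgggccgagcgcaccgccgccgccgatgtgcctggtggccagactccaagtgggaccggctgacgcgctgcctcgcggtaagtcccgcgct
Ezh1: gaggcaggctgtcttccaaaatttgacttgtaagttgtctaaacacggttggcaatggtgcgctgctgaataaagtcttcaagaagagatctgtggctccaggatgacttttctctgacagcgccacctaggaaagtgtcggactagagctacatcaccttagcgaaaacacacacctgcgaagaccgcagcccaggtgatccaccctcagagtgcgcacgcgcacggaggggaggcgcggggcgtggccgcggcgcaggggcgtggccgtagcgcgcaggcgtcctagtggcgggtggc
The match starts 219 bases before the start site in Suz12, 208 bases before it in Phf19 and 3 bases into the transcript in Ezh2. A match describes these letters only, and its absence in Ezh1 says nothing of the factor.

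None of the 37 genes changed between ages or between sorted fractions by the test across all genes (limma with a variance trend, Benjamini-Hochberg adjusted p under 0.05). The count was 0 of 37 in young IL27RA+ against young IL27RA− cells, where 0.0204% of all tested genes were called, and 0 of 37 in the old pair, where 0.0272% were. It was 0 of 37 for age in IL27RA− cells (0.672% of all genes) and 0 of 37 for age in IL27RA+ cells (0.421%). It was also 0 of 37 for the sort averaged over ages (0.19%), for age averaged over fractions (1.88%) and for the interaction of the 2 (0%). At an unadjusted p under 0.05 the limma counts were 1, 2, 0, 2, 4, 3 and 0 of 37 in that order, against 8.21%, 5.38%, 12.5%, 8.89%, 7.97%, 15.1% and 5.18% of all genes. Limma voom on the recovered reads called 0 of 37 in each comparison and gave the same unadjusted counts.

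The precision of these zeros differed by comparison. For age averaged over fractions, 24 of the 37 genes (64.9%) had a 95% interval that lay within a log2 difference of 1 on either side, a 2-fold change, against 34.6% of all tested genes. For the averaged sort the count was 21 (56.8%, against 38.7%). Within a single age or fraction it was 11 to 13 of 37, and for the interaction 4 of 37 (10.8%, against 6.04%). The median half-width of the intervals was 0.82 within an age or fraction and 0.58 for the averages. Within a stratum most of the 37 intervals therefore reached past a 2-fold change. Differences beyond 2-fold were fewer than over all genes: 2 of 37 (5.41%) for the averaged age comparison against 21.4% of all tested genes, and 1 of 37 (2.70%) for the averaged sort against 17.8%. The 37 genes stood at a median log2 level of 9.98 and all tested genes at 8.44.

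**Figure D1:**
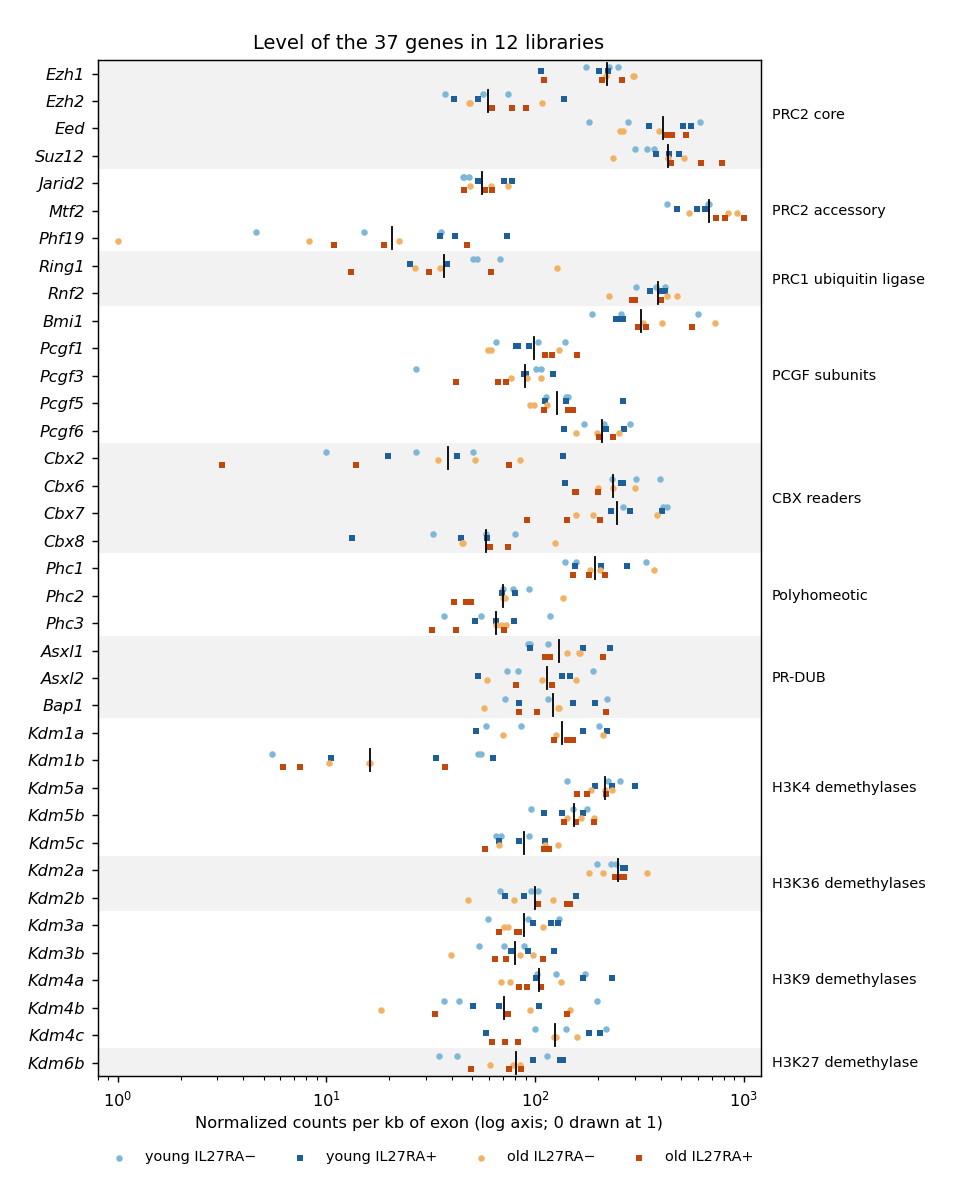
Level of each of the 37 genes in the 12 libraries, in normalized counts per kilobase of exon (log axis, with 0 drawn at 1), with genes in rows by role, colours for the 4 groups and a black bar at the median. Libraries of different groups mix within nearly every row, and Phf19, Cbx2 and Kdm1b have the widest rows.

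Levels between genes were compared per kilobase of exon (union of exons in GENCODE). Mtf2 stood highest with a median of 677 normalized counts per kilobase over the 12 libraries, followed by Suz12 (434), Eed (410), Rnf2 (387) and Bmi1 (320). Kdm1b (16.1), Phf19 (20.5), Ring1 (36.5) and Cbx2 (38.4) stood lowest. Of the 36 neighbouring pairs in this order, 1 kept its order in all 12 libraries, so most neighbours did not differ beyond their spread. The median gene varied 3.34-fold between its highest and lowest library, and 28 of 37 stayed within 4-fold. The median SD between libraries of a group was 0.49 on the log2 scale for the 37 genes, 0.71 for all tested genes and 0.55 for the 9897 genes within the range of the 37 in mean level. Phf19 (SD 2.03), Cbx2 (1.48), Kdm1b (1.35) and Kdm4b (1.19) varied most and Jarid2 (0.24) least.

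**Figure D2:**
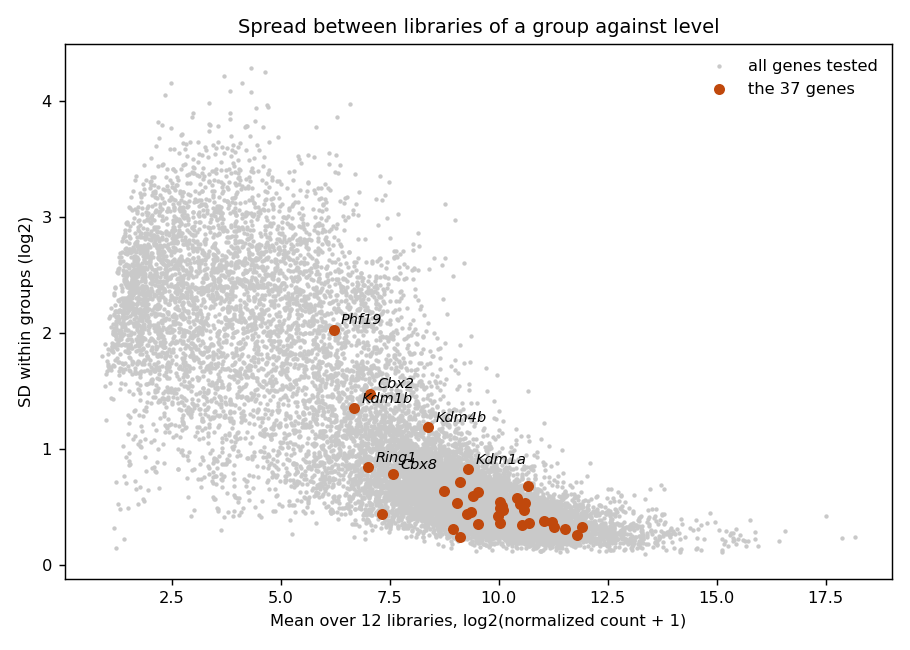
SD within groups of log2(normalized count + 1) against the mean over 12 libraries, for all tested genes (grey) and the 37 genes (orange). The 37 run from a mean of 6.21 to 11.91, and Phf19 lies highest with an SD of 2.03.

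In the PRC2 core, Ezh1 outweighed Ezh2, the methyltransferase more active in dividing cells. Ezh1 read 1862, 1302 and 1686 normalized counts in the young IL27RA− libraries (replicates 1 to 3), 789, 1653 and 1509 in young IL27RA+, 1618, 2202 and 2184 in old IL27RA− and 823, 1552 and 1939 in old IL27RA+. Ezh2 read 376, 247 and 493 in the same first group, 356, 922 and 273 in the second, 722, 321 and 326 in the third and 518, 602 and 415 in the fourth. Both genes overlapped across all 4 groups. Per kilobase Ezh1 exceeded Ezh2 in 12 of 12 libraries, by 1.43-fold to 6.16-fold with a median of 3.63. Its share of the summed EZH level was 79.9% ± 3.9 (SD, n = 3) in young IL27RA− cells, 70.5% ± 11.3 in young IL27RA+, 79.5% ± 11.03 in old IL27RA− and 69.8% ± 10.99 in old IL27RA+. The log2 age difference averaged over fractions was 0.21 with a 95% interval of -0.32 to 0.74 for Ezh1, and 0.21 with an interval of -0.57 to 0.99 for Ezh2. With 1 library left out these ran from 0.043 (without young IL27RA+ replicate 1) to 0.39 (without old IL27RA+ replicate 1) for Ezh1 and from 0.016 (without old IL27RA− replicate 1) to 0.47 (without young IL27RA+ replicate 2) for Ezh2. Without the 2 libraries that stood apart Ezh2 was at -0.12.

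Suz12 and Eed, the partners that EZH1 and EZH2 need, were the PRC2 core genes with the smallest p in the averaged sort. Suz12 read 1704, 1487 and 1829 in young IL27RA− libraries and 1878, 2161 and 2424 in young IL27RA+, groups that did not overlap. It read 2564, 1161 and 2129.7 in old IL27RA− and 3876, 3063 and 2215 in old IL27RA+, which overlapped. Its averaged log2 difference, IL27RA+ minus IL27RA−, was 0.52 ± 0.21 (SE; limma adjusted p = 0.547; two-sided exact permutation p = 0.02). Eed read 2369.7, 691 and 1071 in young IL27RA− and 1952, 1345 and 2141 in young IL27RA+ libraries, which overlapped. In old cells it read 1003, 972 and 1501 in IL27RA− and 2024, 1731 and 1636 in IL27RA+, which did not. Its averaged difference was 0.61 ± 0.27 (adjusted p = 0.594; exact permutation p = 0.065), and 0.36 without the 2 libraries that stood apart. The summed proliferation genes, given above, did not overlap between the old groups, although limma called 0 of the 20 in that comparison (smallest adjusted p = 0.0633). Their part in these values was not tested. Suz12 exceeded Ezh2 per kilobase in 12 of 12 libraries (median ratio 6.998) and Eed in 8 of 12.

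Among the accessory PRC2 genes, Mtf2, which helps bring PRC2 to CpG-rich DNA, read 3827, 3889 and 2428 in young IL27RA− libraries, 3406, 2709 and 3689 in young IL27RA+, 5252, 3109 and 4784 in old IL27RA− and 5675, 4196 and 4615 in old IL27RA+. In IL27RA+ cells every old library lay above every young one, and in IL27RA− cells 1 old library lay within the young range. The log2 age difference was 0.37 ± 0.26 (SE) in IL27RA− cells, 0.56 ± 0.26 in IL27RA+ cells and 0.47 ± 0.18 averaged (limma adjusted p = 0.237; exact permutation p = 0.035). The value in IL27RA− cells was 0.15 without young IL27RA− replicate 3, 0.22 without old IL27RA− replicate 1 and 0.60 without old IL27RA− replicate 2. Mtf2 exceeded Jarid2 per kilobase in 12 of 12 libraries, with a median ratio of 12.6. Jarid2, another targeting subunit, stayed between 439 and 753 normalized counts in all libraries. Phf19, a Polycomb-like paralog of Mtf2, ranged from 0 reads in old IL27RA− replicate 1 to 369 normalized counts in a young IL27RA+ library. Phf19 averaged 92.4, 251, 51.2 and 129 normalized counts in young IL27RA−, young IL27RA+, old IL27RA− and old IL27RA+ cells. The library at 0 enters the fit through the pseudocount, so the sort difference of Phf19 rests partly on it. Its averaged sort difference was 2.23 with a 95% interval of 0.04 to 4.42 (limma adjusted p = 0.618; exact permutation p = 0.04), the widest interval of the 37 genes.

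PRC1 has a catalytic RING subunit, encoded by Rnf2 or Ring1, and Rnf2 had the higher mRNA level. Rnf2 exceeded Ring1 per kilobase in 12 of 12 libraries, by 3.75-fold to 22.3-fold with a median of 9.40. Rnf2 averaged 1518 ± 242 normalized counts (SD, n = 3) in young IL27RA−, 1610 ± 129 in young IL27RA+, 1555 ± 553 in old IL27RA− and 1366 ± 250 in old IL27RA+ cells. Its 95% intervals were -0.47 to 0.43 for the averaged sort and -0.59 to 0.31 for averaged age. Ring1 averaged 184 ± 30.9, 95.5 ± 23.7, 205 ± 182 and 114 ± 78.6 normalized counts in the same order.

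The PCGF subunits define the kind of PRC1 complex, and Bmi1 (PCGF4) belongs to canonical PRC1. Bmi1 read 745, 2404 and 1019.5 normalized counts in young IL27RA− libraries, 1013, 1052 and 968 in young IL27RA+, 2899, 1309.8 and 1617 in old IL27RA− and 1350.0, 2240.5 and 1233 in old IL27RA+. Old and young did not overlap in IL27RA+ cells and overlapped in IL27RA− cells, where young replicate 2 was the high one. The log2 age difference was 0.58 ± 0.41 (SE) and 0.62 ± 0.41 in IL27RA− and IL27RA+ cells, and 0.60 ± 0.29 averaged (limma adjusted p = 0.349; exact permutation p = 0.095). Bmi1 made up 37.2% ± 14.1 (SD, n = 3), 31.1% ± 0.5, 49.1% ± 12.5 and 42.0% ± 7.8 of the summed PCGF level per kilobase in young IL27RA−, young IL27RA+, old IL27RA− and old IL27RA+ cells. It exceeded Pcgf1 and Pcgf3 in 12 of 12 libraries and Pcgf5 and Pcgf6 in 11 of 12. Pcgf1, Pcgf3, Pcgf5 and Pcgf6, of the noncanonical complexes, had averaged age differences of 0.14, -0.15, -0.31 and -0.02. Pcgf3 had age differences of opposite sign in the fractions, 0.46 in IL27RA− and -0.76 in IL27RA+ cells, with an interaction of -1.22 (limma adjusted p = 0.941).

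The CBX proteins read methylated histone tails for PRC1, and Cbx7, a CBX gene known to be active in stem cells, had the smallest adjusted p of all 37 genes in any comparison. Cbx7 read 1707, 2774 and 2655 normalized counts in young IL27RA− libraries and 1021, 1231 and 2496 in old IL27RA− libraries. It read 1496, 1854 and 2639 in young IL27RA+ and 595, 925 and 1332 in old IL27RA+ libraries. The ages did not overlap in IL27RA+ cells, whereas old IL27RA− replicate 3 lay within the young range. The log2 age difference was -0.67 ± 0.38 (SE) in IL27RA− cells, -1.11 ± 0.38 in IL27RA+ cells and -0.89 ± 0.27 averaged, with a 95% interval of -1.46 to -0.31 (limma adjusted p = 0.121; exact permutation p = 0.02). The averaged value was -0.69 without the 2 libraries that stood apart and between -1.08 and -0.74 with any 1 library left out. The value in IL27RA− cells was less stable, at -0.41 without old IL27RA− replicate 1, -1.05 without old IL27RA− replicate 3 and -0.28 without the 2 libraries that stood apart.

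Cbx6 and Cbx7 were the leading CBX genes, and neither led throughout, since Cbx7 exceeded Cbx6 per kilobase in 6 of 12 libraries. Cbx7 made up 48.0% ± 9.5 (SD, n = 3) of the summed CBX level in young IL27RA−, 49.3% ± 16.9 in young IL27RA+, 39.2% ± 15.1 in old IL27RA− and 34.6% ± 7.0 in old IL27RA+ cells. Cbx6 read 3225, 2482 and 4201 normalized counts in young IL27RA−, 2732, 2784 and 1467 in young IL27RA+, 3201, 2129.7 and 2496 in old IL27RA− and 1642, 2119.8 and 1661 in old IL27RA+ libraries. Every old IL27RA+ library lay below every old IL27RA− one, and the young groups overlapped. Its averaged sort difference was -0.52 ± 0.21 (SE; limma adjusted p = 0.520; exact permutation p = 0.025). Cbx8 and Cbx2 stood lower, and Cbx2 varied 43.1-fold between libraries, from 13.4 to 578 normalized counts. Its interaction was -2.82 (limma adjusted p = 0.941).

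**Figure D3:**
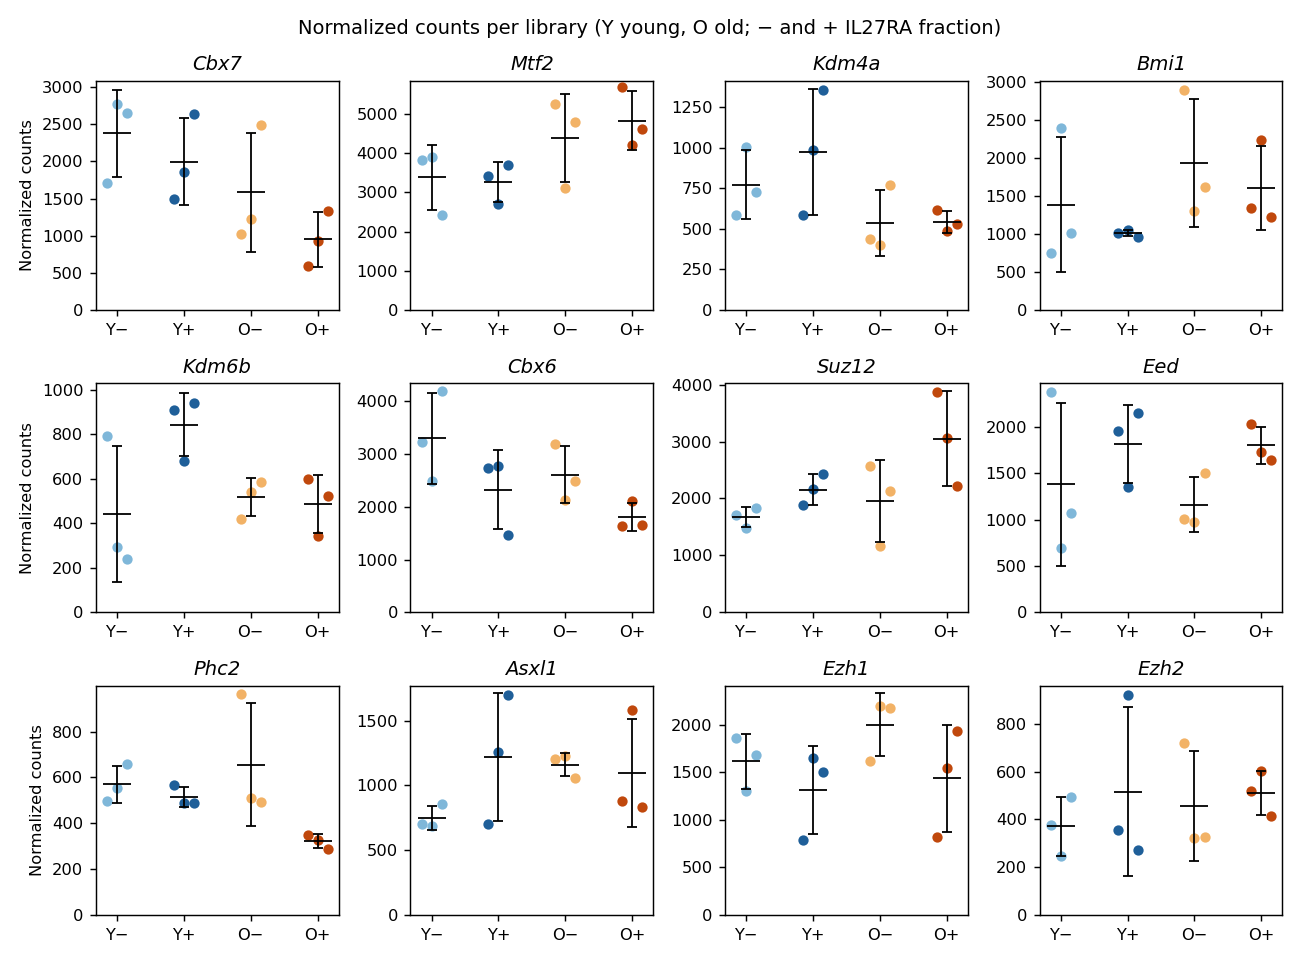
Normalized counts of 12 of the genes in each library, with groups on the horizontal axis (Y young, O old, − and + the IL27RA fraction), points for libraries, and bars for the group mean and SD (n = 3). Cbx7 in old IL27RA+ cells (595 to 1332) lies below all young IL27RA+ libraries, and Phc2 in old IL27RA+ cells (288 to 349) lies below all other libraries.

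The Polyhomeotic genes encode subunits that join PRC1 complexes together. Phc2 read 498, 554 and 658 normalized counts in young IL27RA− libraries, 567, 488 and 490.3 in young IL27RA+, 965, 509 and 494 in old IL27RA− and 349, 328 and 288 in old IL27RA+. The old IL27RA+ libraries were the 3 lowest of 12. Old IL27RA+ minus old IL27RA− was -0.96 ± 0.37 (SE; limma adjusted p = 0.785), and -0.64 without the 2 libraries that stood apart. The old sort difference was also below 0 in Phc1 (-0.41) and Phc3 (-0.59), and the young one was near 0 in all 3 (-0.14 to 0.08). The interactions of the 3 genes, -0.82 to -0.49, were not called.

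In PR-DUB, Asxl1 read 703, 687 and 855 normalized counts in young IL27RA− libraries, 704, 1254 and 1694 in young IL27RA+, 1201, 1225 and 1056 in old IL27RA− and 878, 1579.6 and 832 in old IL27RA+. In IL27RA− cells every old library lay above every young one, and in IL27RA+ cells the ages overlapped. The age difference was 0.64 ± 0.35 (SE; limma adjusted p = 0.480) in IL27RA− cells and -0.12 ± 0.35 in IL27RA+ cells, with an interaction adjusted p of 0.941 or more for all 37 genes. Asxl2, its paralog, and Bap1, the deubiquitinase, had averaged age differences of -0.01 (95% interval -0.70 to 0.68) and -0.22 (-1.02 to 0.58).

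Of the demethylases of lysine 4, Kdm5a and Kdm5b, which remove the methyl marks of active promoters, stood highest of the KDM genes per kilobase after Kdm2a. Kdm5b read 2515, 2929.7 and 1574 normalized counts in young IL27RA−, 2800.2, 1819 and 2229.7 in young IL27RA+, 2338, 2752 and 3166 in old IL27RA− and 2275, 3173 and 2582 in old IL27RA+ libraries. The 4 groups overlapped, and the averaged intervals were -0.43 to 0.38 for the sort and -0.15 to 0.66 for age. Kdm5a exceeded Kdm5c per kilobase in 12 of 12 libraries. Kdm1a (LSD1), a flavin-dependent demethylase needed in blood cell differentiation, exceeded its paralog Kdm1b in 12 of 12, with a median ratio of 6.08. Kdm1b ranged from 30.1 to 343 normalized counts between libraries, and 9.2% of its exon bases overlap the gene Dek. The demethylases of lysine 36, Kdm2a and Kdm2b, had averaged age differences of 0.00 and 0.09, and Kdm2a had the narrowest interval of the 37 genes (-0.35 to 0.35).

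The demethylases of lysine 9 had averaged age differences below 0 in 5 of 5 genes, with a median of -0.34 against 0.06 over all tested genes, and none was called. The count was 4 of 5 with array weights, with Kdm4b at 0.13. It was also 4 of 5 without any 1 of old IL27RA− replicates 1 and 2, old IL27RA+ replicate 2, young IL27RA− replicate 1 and young IL27RA+ replicate 3, with Kdm4b at up to 0.40 or Kdm3b at 0.064. Kdm4a read 588, 1002 and 727 normalized counts in young IL27RA−, 583, 983 and 1354 in young IL27RA+, 440.1, 398 and 772 in old IL27RA− and 615, 485 and 529.7 in old IL27RA+ libraries. Old and young overlapped in both fractions. Its age difference was -0.55 ± 0.39 (SE) in IL27RA− cells, -0.76 ± 0.39 in IL27RA+ cells and -0.66 ± 0.28 averaged (limma adjusted p = 0.284; exact permutation p = 0.04). The value in IL27RA+ cells was -0.48 without young IL27RA+ replicate 3. Kdm4c, a paralog, read 580.3, 818 and 1274 in young IL27RA−, 339, 1054 and 1191 in young IL27RA+, 714, 729 and 922 in old IL27RA− and 484, 363 and 419.5 in old IL27RA+ libraries. In old cells every IL27RA+ library lay below every IL27RA− one, a difference of -0.90 ± 0.45 (SE; limma adjusted p = 0.964). Kdm3a and Kdm3b had averaged age differences of -0.34 and -0.13, and Kdm4b, with a level that varied 10.8-fold between libraries, one of -0.05. In Kdm3b, 24.6% of exon bases overlap another gene (Gm26538). No source used here says whether counting used strand, and without it reads of the pair cannot be told apart.

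Kdm6b (JMJD3), the gene here that removes the PRC2 mark and a gene known to respond to inflammatory signals, had the largest sort difference in young cells after Phf19. It read 790.4, 293 and 241 normalized counts in young IL27RA− libraries and 909, 681 and 941 in young IL27RA+, so that young IL27RA− replicate 1 lay inside the other group's range. It read 421, 543 and 588 in old IL27RA− and 597, 344 and 521 in old IL27RA+ libraries, which overlapped. The sort difference was 1.12 ± 0.45 (SE; limma adjusted p = 0.544) in young and -0.11 ± 0.45 in old cells, with an interaction of -1.23 (limma adjusted p = 0.941). Macrophage genes were higher in the same young IL27RA+ libraries (5847 to 9404 normalized counts, against 1592 to 2357 in young IL27RA−). They were also higher in old IL27RA+ libraries (2078 to 9472, against 1206 to 1741 in old IL27RA−). Their part in the Kdm6b values was not tested at either age. In bulk libraries fewer cells that express a gene and less RNA per cell cannot be told apart.

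**Figure D4:**
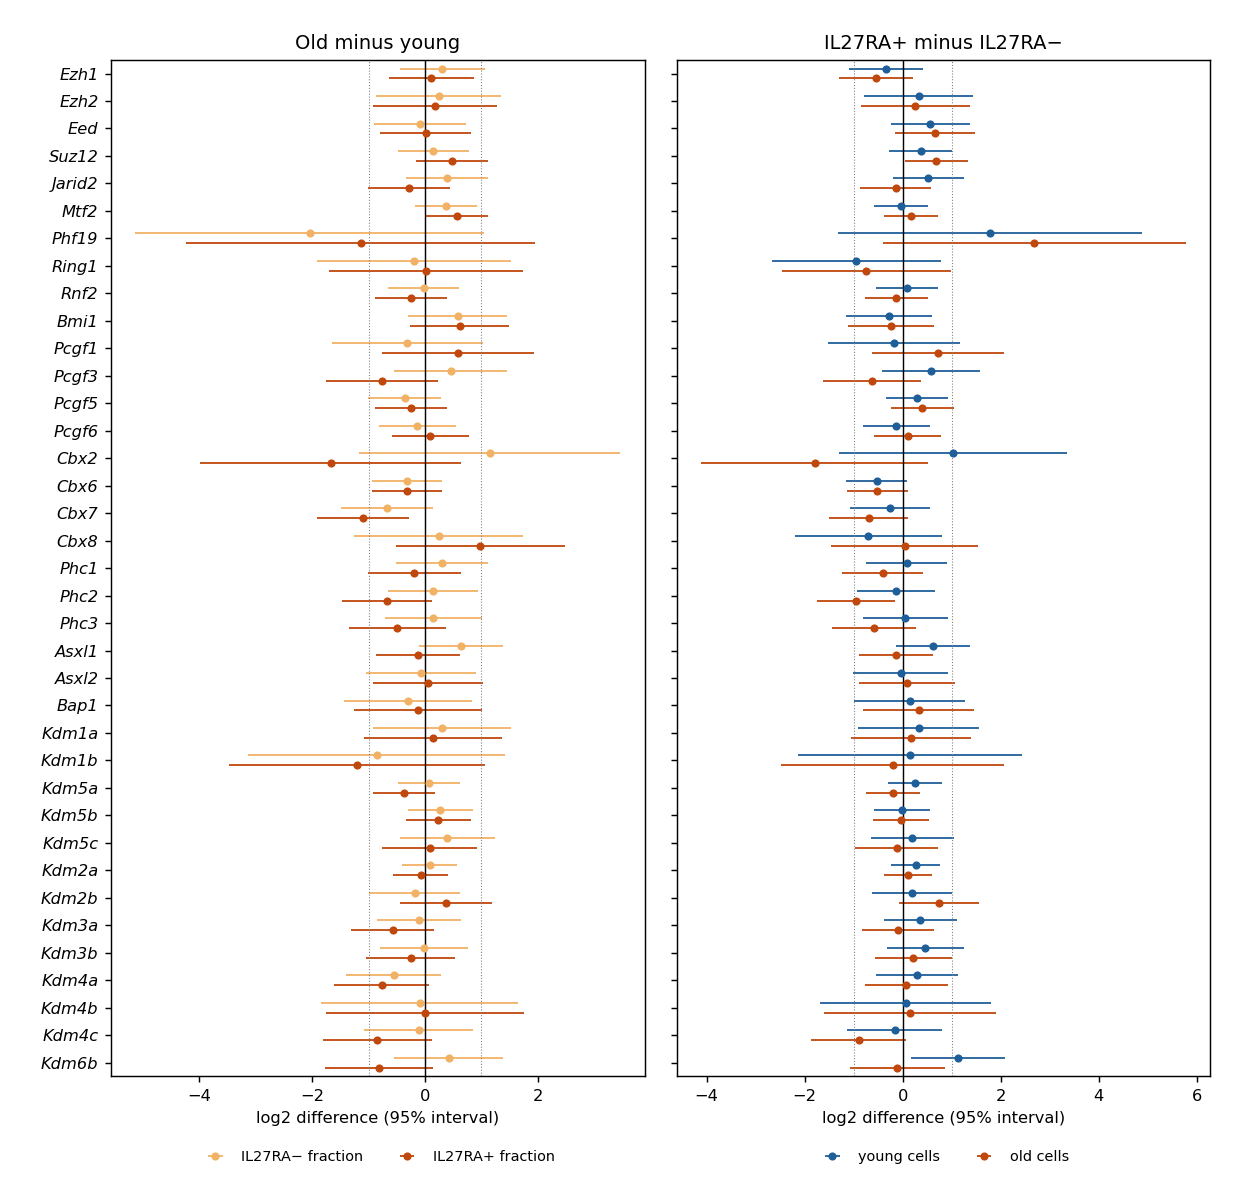
Log2 differences of the 37 genes with 95% intervals from the limma fit, for age in each fraction (left) and for the sort at each age (right), with dotted lines at a 2-fold change. Intervals of Phf19, Cbx2 and Kdm1b are the widest, and few intervals exclude 0.

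The direction of the differences was mixed. For age, 21 of the 37 genes (56.8%) had the same sign in both fractions, 9 higher and 12 lower in old cells, and 58.3% of all tested genes had the same sign. For the sort, 20 (54.1%) had the same sign at both ages, against 51.9% of all tested genes. The median difference of the 37 was 0.03 for the averaged sort (0.05 over all genes) and -0.05 for averaged age (0.06 over all genes). Groups of 3 libraries did not overlap in 4 of the 37 genes (3 higher, 1 lower) for the young sort, where 9.79% of all tested genes did not overlap. The count was 5 (1 higher, 4 lower) for the old sort against 12.6%, and 2 (both higher) for age in IL27RA− cells against 14.5%. It was 9 of 37 (24.3%) for age in IL27RA+ cells against 16.9%, with Cbx8, Bmi1, Mtf2 and Pcgf1 higher and Kdm6b, Phc2, Pcgf3, Cbx7 and Kdm3a lower in old cells. For the averages, taken over all 6 libraries against the other 6, the count was 0 of 37 for the sort against 0.421% and 0 of 37 for age against 2.06%. The exact permutation test over libraries had 400 arrangements for the averages and a smallest possible p of 0.005. Its p values beside single genes are unadjusted for the 37 genes tested, and the shares of all genes given above are those of limma. It was run on the 37 genes only, so it has no share over all genes. Its p was under 0.05 in 4 of 37 genes for the averaged sort. These were Suz12 (0.02), Cbx6 (0.025), Phc2 (0.025) and, with 1 library at 0, Phf19 (0.04). For averaged age the permutation p was under 0.05 in 3 of 37 (Cbx7 0.02, Mtf2 0.035 and Kdm4a 0.04). Within a stratum 3 libraries against 3 cannot give an exact p under 0.1.

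The other genes of these systems were read from lists. None was called by limma in any of the 7 comparisons. The tested entries were 31 of other Polycomb and PR-DUB genes and 12 of other histone demethylases. A further 20 were of Trithorax group and lysine 4 methyltransferase genes, and 17 of a lysine 9 and lysine 36 methylation list. That last list holds methyltransferases and also Cbx1, Cbx3, Cbx5, Trim28, Wiz and Atf7ip, which are not methyltransferases. Atf7ip and, among the demethylases, Jmjd1c are each entered more than once. Over these 80 entries, 15 (18.8%) had an unadjusted limma p under 0.05 for averaged age, against 15.1% of all tested genes. For the averaged sort 8 (10%) did, against 7.97%. Their median averaged age difference was -0.18, against 0.06 over all tested genes. For averaged age, the smallest adjusted p values were those of Kmt2d (Mll2 in the table), a lysine 4 methyltransferase, at -0.67 ± 0.18 (SE; adjusted p = 0.0759), and Pagr1a, its complex partner, at -0.70 ± 0.23 (0.159). They were followed by Ogt, which glycosylates HCFC1, at -0.53 ± 0.19 (0.191) and Hcfc1 at -0.55 ± 0.21 (0.224). For the averaged sort, Psip1, a reader of lysine 36 methylation, stood at 0.69 ± 0.18 (SE; limma adjusted p = 0.212). Of 20 genes known from other work as Polycomb targets, 15 were in the table and 10 passed the filter, and none of the 10 was called. Lin28b, a fetal gene, had no read in 7 of 12 libraries, all 3 of old IL27RA− among them, and its fitted difference, which rests on the pseudocount, is not given. Cdkn1c, a cell cycle inhibitor, stood at -0.89 ± 0.39 (SE; limma adjusted p = 0.297) for averaged age.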

How the data were processed

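Expression was measured by RNA sequencing in 12 libraries. Per the submitters' processing notes, FastQC 0.11.5, TopHat2 2.1.1, HTSeq and DESeq2 are named without a role or an order, and no source used here gives the genome build. The deposited values are log2 of a normalized count plus 1. Whole read counts were recovered from the deposited table for 100% of values within 0.001 reads. Of 20473 lines, 1 damaged line (Mtbp) and 15 repeats were left out, and 21 names turned into dates were restored.

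A linear model with a variance trend (limma 3.58.1, under R 4.3.3) was fitted to the log2 values of 14723 genes in all 12 libraries, with 1 mean per group, 8 residual and 6.62 prior degrees of freedom, and Benjamini-Hochberg adjustment over all 14723 genes at 0.05. Each difference is one of log2(normalized count + 1). Exact permutations were over libraries within strata. Alternatives were the filter, the pseudocount, quantile normalization, array weights, voom, separate fits, the replicate number as a block and each library left out. The 37 genes and all lists were chosen with earlier results of these data known. Values in every library are given for the 3 genes with the smallest p in each of the 6 differences and for Ezh1, Ezh2, Bmi1, Cbx7, Kdm5b and Kdm6b, and others are given by means, ranges or counts. Amplified reads are not independent molecules, so floors cover counting error only.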

Additional observations from a re-analysis of the deposited data

How the results depend on the processing

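The number of the 37 genes called stayed at 0 in 143 of 144 recomputed counts, and 579 of 592 recomputed differences of the named genes kept their sign and their side of the threshold. The exception among counts was the fit with the replicate number as a block, which called 1 gene for averaged age: Cbx7, at -0.89 with a limma adjusted p of 0.0284. The correlation r of deviations from the group mean was computed between libraries of different groups. For 18 same-numbered pairs r lay between -0.054 and 0.107 with a median of 0.0097, and 1 was over 0.1. Differently numbered pairs ran from -0.068 to 0.071 with a median of -0.0019. Between fractions of the same age and number, r was 0.107, 0.027 and 0.016 in young and 0.031, 0.0038 and 0.095 in old libraries. These values do not settle whether the numbers pair the fractions. With 1 library left out, the smallest adjusted p of Cbx7 was 0.0598. Some uncalled differences changed sign. For the averaged sort, Kdm5b (-0.03) was at 0.021 with quantile normalization, 0.018 with array weights, 0.0033 with voom and 0.011 without the 2 least weighted libraries, and ran from -0.16 to 0.067 with 1 library left out. Without the 2 least weighted libraries, a choice made after seeing the data, Bmi1 was at 0.15 for the averaged sort and Ezh2 at -0.12 for averaged age. Kdm6b ran from -0.36 to 0.065 for averaged age, and was above 0 without young IL27RA− replicate 1. The cause was not tested. Mean levels of the 37 genes were 131 normalized counts or more, against at most 3.77 for 3 reads, but single libraries were as low as 0 for Phf19, 13.4 for Cbx2 and 30.1 for Kdm1b.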
